A study of Mus musculus with 19 samples.

Results

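The genes described here are 44 regulators of chromatin and DNA methylation, measured in mouse CD4+ T cells: DNA methyltransferases, 5-methylcytosine oxidases, Polycomb proteins, histone methyltransferases and demethylases, histone deacetylases and acetyltransferases, the genome organiser Satb1 and SNF2-type remodellers. They were chosen by name. Some of them, such as Suz12, Eed, Cbx7 and Satb1, are not enzymes themselves but subunits, readers or DNA-binding proteins. Each gene was represented by the probe set, of those annotated with its symbol only, with the highest mean over the 19 arrays, and was kept where that probe set reached log2 4 on at least 2 arrays. Of the 44, 43 had a probe set and 42 were kept, of 9929 genes kept in all. Suv39h1 is not analysed here, as the annotation used names no probe set for it. Hdac9 was dropped, since its probe set reached log2 4 on 0 of 19 arrays. Whsc1 is listed under its other symbol, Nsd2.

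Follicular helper T (Tfh) cells are CD4+ T cells that enter B cell follicles through the chemokine receptor CXCR5, carry the inhibitory receptor PD-1 and depend on the transcriptional repressor BCL6. The study sorted C57BL/6J cells into 6 groups. From lymph nodes of immunized mice came CXCR5hi PD-1hi cells with the YFP signal of a BCL6 reporter, the YFP-positive group (n = 4; 3 arrays of day 7 and 1 of day 10), CXCR5hi PD-1hi cells without it, the YFP-negative group (n = 4; 2 of day 7 and 2 of day 10), and CXCR5lo PD-1lo cells (n = 3; day 7). Another 2 groups of CXCR5hi PD-1hi cells were told apart by genotype and not by YFP, namely Bcl6yfp/+ (n = 3; day 7) and Bcl6+/+ (n = 3; 1 of day 7 and 2 of day 10). Naive CD4+ T cells, gated as CD44lo CD62Lhi, came from the spleen of unimmunized mice (n = 2). The CXCR5hi PD-1hi groups are called Tfh cells below. Per the labels, the sorted cells were OT-II cells, which carry a transgenic receptor for ovalbumin, with 1 Bcl6yfp reporter allele, transferred into congenic hosts that received NP-OVA in complete Freund's adjuvant under the skin; that protocol is given for every array, also for the naive and Bcl6+/+ ones, so the origin of those cells is less certain. All values are log2 expression per probe set, on a scale whose floor lies near 2. A level is compared only with the same probe set on other arrays.

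DNA methylation is written by Dnmt3a and Dnmt3b, copied after replication by Dnmt1, and removed stepwise after oxidation by the Tet enzymes. Polycomb complex PRC2 methylates histone H3 at lysine 27 through Ezh2 or Ezh1, and PRC1 reads that mark through Cbx proteins. In T cells these systems help to keep genes of other lineages silent, and several of their members, such as Dnmt1, Hells and Ezh2, are also known as genes that dividing cells express more.

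Cd3e and Cd4 were at log2 13.29 or more on every array and Cd8a at 2.41 or less, and the B cell genes Cd79a and Ms4a1 stayed at 3.10 or less. Of 14 B cell markers 13 had a probe set, and 11 of these were under log2 4 on every Tfh array. The mean of the 13 was 2.455 and 2.594 on the naive arrays, 3.05 to 3.601 in CXCR5lo PD-1lo cells and 3.16 to 3.69 on the Tfh arrays. Of the 3 that were kept, 2 rose in each comparison with naive cells; against CXCR5lo PD-1lo cells 1 rose (7.34 for the YFP-positive and 6.61 for the YFP-negative group) and 1 fell. Of the marker lists, that of myeloid and dendritic cells had a mean of 5.02 on YFP-negative replicate 1 and of 3.14 or less on the other arrays. Jchain, a plasma cell gene, ranged from 2.20 to 12.42 over the YFP-negative arrays, from 7.72 to 10.53 in CXCR5lo PD-1lo cells and from 2.205 to 5.56 in naive cells. The mean of 7 plasma cell markers was 6.08 to 7.16 in CXCR5lo PD-1lo cells, 5.03 to 7.55 in YFP-negative cells, 4.88 to 5.93 in YFP-positive cells, 5.08 to 5.83 in the genotype groups, and 4.75 and 4.83 on the naive arrays. The part of these markers in the results was not tested. Array medians ran from 2.40 to 2.99. The deposited columns fell into 7 sets of near-identical value distributions, which look as if normalized apart: in CXCR5lo PD-1lo cells and both YFP groups, replicates 1, 2 and 3 formed sets 1, 2 and 3 by number, and set 4 held both YFP groups' replicate 4 with naive replicate 1. Bcl6yfp/+ replicate 1 and naive replicate 2 made set 5, both genotypes' replicates 2 and 3 set 6, and Bcl6+/+ replicate 1 set 7. Xist, expressed in female cells, was at log2 13.01 or more on all day 7 arrays of the YFP and CXCR5lo PD-1lo groups and at 2.08 or less on their 3 day 10 arrays. It was at 2.15 or less on all 6 arrays of the genotype groups, 13.41 on naive replicate 1 and 2.15 on naive replicate 2. In the YFP groups, day and sex therefore cannot be told apart.

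Of the kept members, 4 had a promoter with a letter match to the binding site of the E2F factors, which drive genes of the DNA synthesis phase. The promoters of 3 of them, Hells, Ezh2 and Dnmt1, are shown for this reason, with that of Tet1, the member with the widest range over the groups, for contrast. Each runs from 250 bases before the annotated start to 30 after it, 5′ to 3′, from RefSeq's table for build GRCm38.p6, and capitals mark the E2F letters.
Hells, chr19:38930740-38931019, plus strand: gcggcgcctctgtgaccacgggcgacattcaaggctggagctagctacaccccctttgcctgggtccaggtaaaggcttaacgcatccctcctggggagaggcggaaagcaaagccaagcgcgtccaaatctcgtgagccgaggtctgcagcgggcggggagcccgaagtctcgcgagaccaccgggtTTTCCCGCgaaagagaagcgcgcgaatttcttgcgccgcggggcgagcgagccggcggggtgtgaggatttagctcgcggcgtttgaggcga
Ezh2, chr6:47595001-47595280, minus strand: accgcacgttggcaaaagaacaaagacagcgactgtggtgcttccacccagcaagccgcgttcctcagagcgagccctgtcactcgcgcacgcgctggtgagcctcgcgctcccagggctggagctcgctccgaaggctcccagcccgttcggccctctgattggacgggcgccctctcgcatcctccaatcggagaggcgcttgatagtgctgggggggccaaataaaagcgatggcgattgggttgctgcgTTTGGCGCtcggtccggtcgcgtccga
Dnmt1, chr9:20952594-20952873, minus strand: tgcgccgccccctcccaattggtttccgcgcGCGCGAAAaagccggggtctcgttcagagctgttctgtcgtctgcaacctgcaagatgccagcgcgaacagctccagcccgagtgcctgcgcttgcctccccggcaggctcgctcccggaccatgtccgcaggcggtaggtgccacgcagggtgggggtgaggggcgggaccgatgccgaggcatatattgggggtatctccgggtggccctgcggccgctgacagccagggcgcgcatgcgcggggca
Tet1, chr10:62887295-62887574, minus strand: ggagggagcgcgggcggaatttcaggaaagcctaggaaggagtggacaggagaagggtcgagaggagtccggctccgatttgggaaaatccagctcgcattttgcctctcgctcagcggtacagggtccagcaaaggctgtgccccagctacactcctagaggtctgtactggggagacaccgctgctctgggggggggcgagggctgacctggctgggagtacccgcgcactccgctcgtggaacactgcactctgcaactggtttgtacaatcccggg
The E2F motif was searched as TTTCCCGC, TTTCGCGC, TTTGCCGC and TTTGGCGC on both strands, over 250 bases before to 50 after each start. Counted from the start as position 1, the matches were TTTCCCGC from -62 in Hells, TTTGGCGC from 4 in Ezh2, and GCGCGAAA, the other strand's TTTCGCGC, from -219 in this Dnmt1 promoter, 1 of 3 in the table. A second match in Dnmt1, TTTGGCGC from 34, lies past the printed end. Of the 60 promoters that the table holds for 39 members, 5 (8.33%) had a match, against 2.26% of all 32851 promoters and 2.85% of the protein-coding ones. The other 2 were in Suz12 (TTTCCCGC from -219) and in Suv39h1 (GCGGCAAA from -64), which has no array value here. The group means of Suz12 spanned 0.84 log2. Among the members without a listed match were Suv39h2 and Nsd2, whose group means spanned 3.64 and 3.27. The Tet1 promoter held 0 of these letters. The 4 promoters were picked after the values were seen. The CHR element of mitotic genes (TTTGAA or TTCGAA) was in 16.7% of member promoters and 19.2% of all, and CCAAT in 33.3% and 37.4%. In the printed windows the dinucleotide CG, where DNA is methylated, occurred 32 times in Hells, 30 times in Ezh2 and in Dnmt1, and 16 times in Tet1. These are letter matches and not measured sites.

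The 6 group means of a member spanned a median of 0.95 log2, against 1.08 for all 9929 genes. The span was under 1 for 22 of 42 members and 2 or more for 6 of 42, a size that 19.6% of all genes reached. Those 6 were Tet1 (6.48), Hells (3.99), Suv39h2 (3.64), Nsd2 (3.27), Ezh2 (2.57) and Chd4 (2.26). Tet1 was highest in naive cells, and Hells, Suv39h2, Nsd2 and Ezh2 were highest in YFP-positive Tfh cells.

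**Figure D1:**
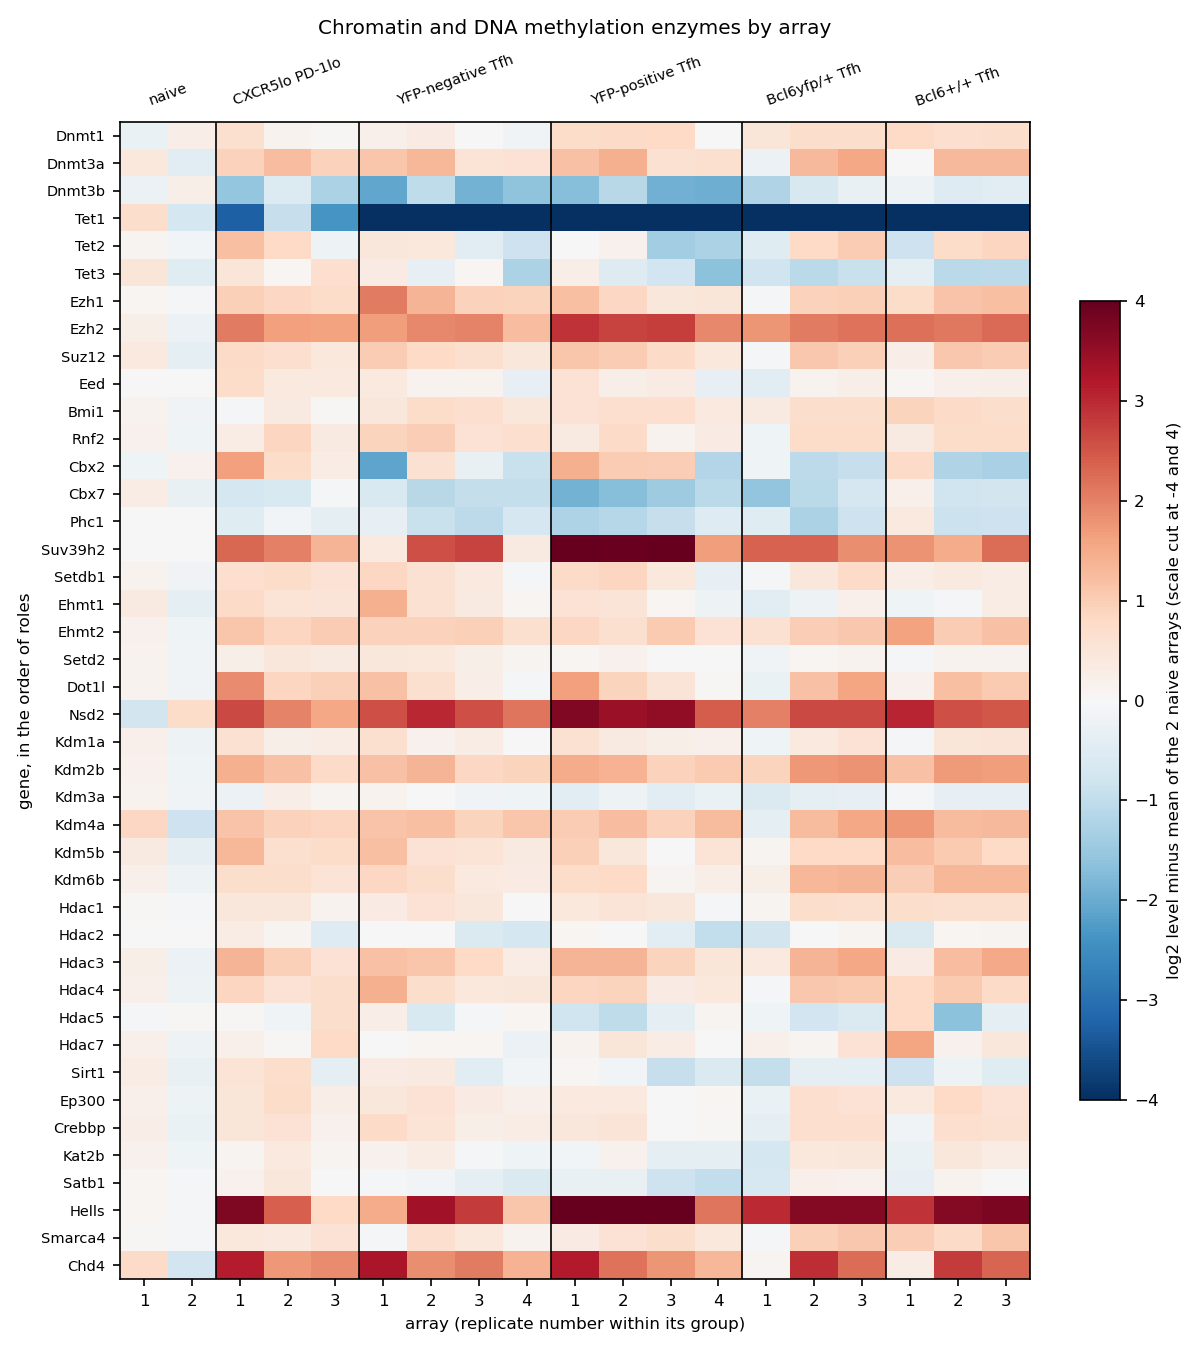
Log2 level of each of the 42 members (rows, ordered by role) on each of the 19 arrays (columns, by group and replicate number), less the mean of the 2 naive arrays; red is higher, blue lower, and the colour scale stops at -4 and 4. The row of Tet1 is blue on all 17 arrays of immunized mice, and the rows of Hells, Suv39h2, Nsd2 and Ezh2 are red.

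Calls were made at an adjusted p under 0.05 from limma, fitted to all 19 arrays and adjusted by Benjamini-Hochberg over the 9929 genes; SE is that of the fit. A member said to have no call had none in this fit, which has no block. YFP-positive against YFP-negative Tfh cells gave 0 of 42 members, where 0.121% of all genes were called (12 genes; at an unadjusted p under 0.05, 5 members and 786 genes). With the normalization set as a block this comparison called 10 members and 1545 genes. The members were Dnmt1 (0.47; adjusted p = 0.0419), Ezh2 (0.86; adjusted p = 0.00681), Suv39h2 (2.14; adjusted p = 0.0299) and Nsd2 (0.70; adjusted p = 0.0427), higher, and Tet2 (-0.52; adjusted p = 0.0301), Ezh1 (-0.57; adjusted p = 0.0262), Rnf2 (-0.38; adjusted p = 0.0193), Sirt1 (-0.42; adjusted p = 0.0187), Kat2b (-0.23; adjusted p = 0.0424) and Satb1 (-0.315; adjusted p = 0.0304), lower. YFP-positive Tfh against CXCR5lo PD-1lo cells gave 2 of 42, both lower, with 10.6% called among all genes and 5.39% called lower. YFP-negative Tfh against CXCR5lo PD-1lo cells gave 1 of 42, lower, with 6.53% called and 3.39% called lower. These shares of members lie below or near those of all genes. Both comparisons share the 3 CXCR5lo PD-1lo arrays. Arrays of the groups did not overlap for Bmi1 (higher; 8.76% of all genes) and for Tet1, Cbx7, Phc1, Setd2 and Satb1 (5 lower; 14.2%) in YFP-positive against CXCR5lo PD-1lo cells. In YFP-negative cells they did not overlap for Bmi1 (higher; 7.48%) and for Tet1 and Satb1 (lower; 11.2%).

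Against naive cells more members were called. CXCR5lo PD-1lo cells had 4 higher and 1 lower, where 11.9% of all genes were called (10.4% higher, 1.57% lower). YFP-positive Tfh cells had 7 higher and 4 lower, where 28.8% were called (22.4% higher, 6.44% lower). YFP-negative Tfh cells had 6 higher and 2 lower, where 21.1% were called (16.5% higher, 4.62% lower). The 6 arrays of both genotypes together, named bulk Tfh cells, had 11 higher and 1 lower, where 34.3% were called (28.4% higher, 5.9% lower). The member counts are thus near those shares of all genes. These comparisons share the 2 naive arrays. They also carry a shift of the whole array: the median of all genes lay above naive cells by 0.46 in CXCR5lo PD-1lo, 0.395 in YFP-positive, 0.38 in YFP-negative and 0.505 in bulk Tfh cells, and within 0.083 of 0 once all arrays were quantile normalized. After quantile normalization the calls were 3 higher and 3 lower, 6 and 11, 4 and 6, and 7 and 8, in the same order. With the set as a block they were 4 higher and 4 lower, 4 and 10, 6 and 10, and 4 and 8. The shares of all genes called in these fits are not given here. Naive cells shared a set with cells of immunized mice only in sets 4 and 5. With that block, the sorted groups were thus compared through naive replicate 1, and bulk cells through naive replicate 2. CXCR5lo PD-1lo cells shared no set with naive cells. Because of the shift of the whole array, a small rise against naive cells is not always a rise relative to other genes. Each member's value is given below with that median in view.

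The fit with the set as a block called further members. It also called more of all genes between the YFP groups, as given above. Its shares of all genes in the other comparisons are not given here. The counts below are therefore not read as a trait of these members. In YFP-positive against CXCR5lo PD-1lo cells it called 20 members: Ezh2, Suv39h2, Nsd2, Hells, Dnmt1, Suz12 and Bmi1 higher, and Tet1, Tet2, Tet3, Dnmt3b, Cbx7, Phc1, Setd2, Kdm3a, Kdm5b, Hdac5, Sirt1, Kat2b and Satb1 lower. In YFP-negative against CXCR5lo PD-1lo cells it called 11: Ezh1, Suz12, Rnf2, Bmi1 and Nsd2 higher, and Tet1, Tet2, Dnmt3b, Eed, Dot1l and Satb1 lower. Against naive cells, each comparison of that fit rested on a single naive array. Hdac2 was called lower in all 4, and Sirt1, Kat2b, Eed, Satb1 and Cbx7 in the 3 with Tfh cells. Rnf2 was called higher in YFP-negative cells.

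The widest change was in Tet1, the dioxygenase that starts the removal of 5-methylcytosine. Its levels were 9.56 and 8.18 in naive cells and 5.60, 7.95 and 6.52 in CXCR5lo PD-1lo cells. Tfh arrays were lower: 2.80, 4.04, 3.67 and 2.81 in YFP-positive cells and 2.75, 4.05, 3.73 and 3.90 in YFP-negative cells. The bulk arrays lay nearest the floor, with 2.99, 2.45 and 2.80 in Bcl6yfp/+ and 2.38, 2.36 and 2.42 in Bcl6+/+ cells. The 3 kinds of cells, naive, CXCR5lo PD-1lo and Tfh, did not overlap.

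Tet1 fell by 3.36 (SE 0.49; adjusted p = 0.000199) in YFP-positive and by 3.08 (SE 0.49; adjusted p = 0.000574) in YFP-negative Tfh against CXCR5lo PD-1lo cells, both from limma. Within sets 1, 2 and 3 the YFP-positive difference was between -3.92 and -2.80 and the YFP-negative one between -3.90 and -2.79. Both calls held in all 9 other settings and with each array left out. Against naive cells the called differences in Tet1 were -2.18 (SE 0.59; adjusted p = 0.0238) in CXCR5lo PD-1lo, -5.54 (SE 0.56; adjusted p = 1.24e-06) in YFP-positive, -5.26 in YFP-negative and -6.30 in bulk Tfh cells. The CXCR5lo PD-1lo call was lost without CXCR5lo PD-1lo replicate 1 (-1.64; adjusted p = 0.11), CXCR5lo PD-1lo replicate 3 (-2.10; adjusted p = 0.0525) or naive replicate 1 (-1.49; adjusted p = 0.204), and with only the compared groups in the fit (adjusted p = 0.145). YFP-positive and YFP-negative cells differed by -0.28 in Tet1, with a fitted 95% interval that held 0. As the Tfh arrays reach the floor, these differences depend on where the floor lies. The probe set passed the filter on 7 arrays, among them both naive and all 3 CXCR5lo PD-1lo ones, so its selection leaned on the groups where it is high. A second Tet1 probe set, dimmer with a mean of 2.54, differed from naive cells by -1.998 (YFP-positive) and -2.004 (YFP-negative; adjusted p = 0.0187 and 0.0232) and from CXCR5lo PD-1lo cells by -1.02 in YFP-positive cells (adjusted p = 0.311).

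**Figure D2:**
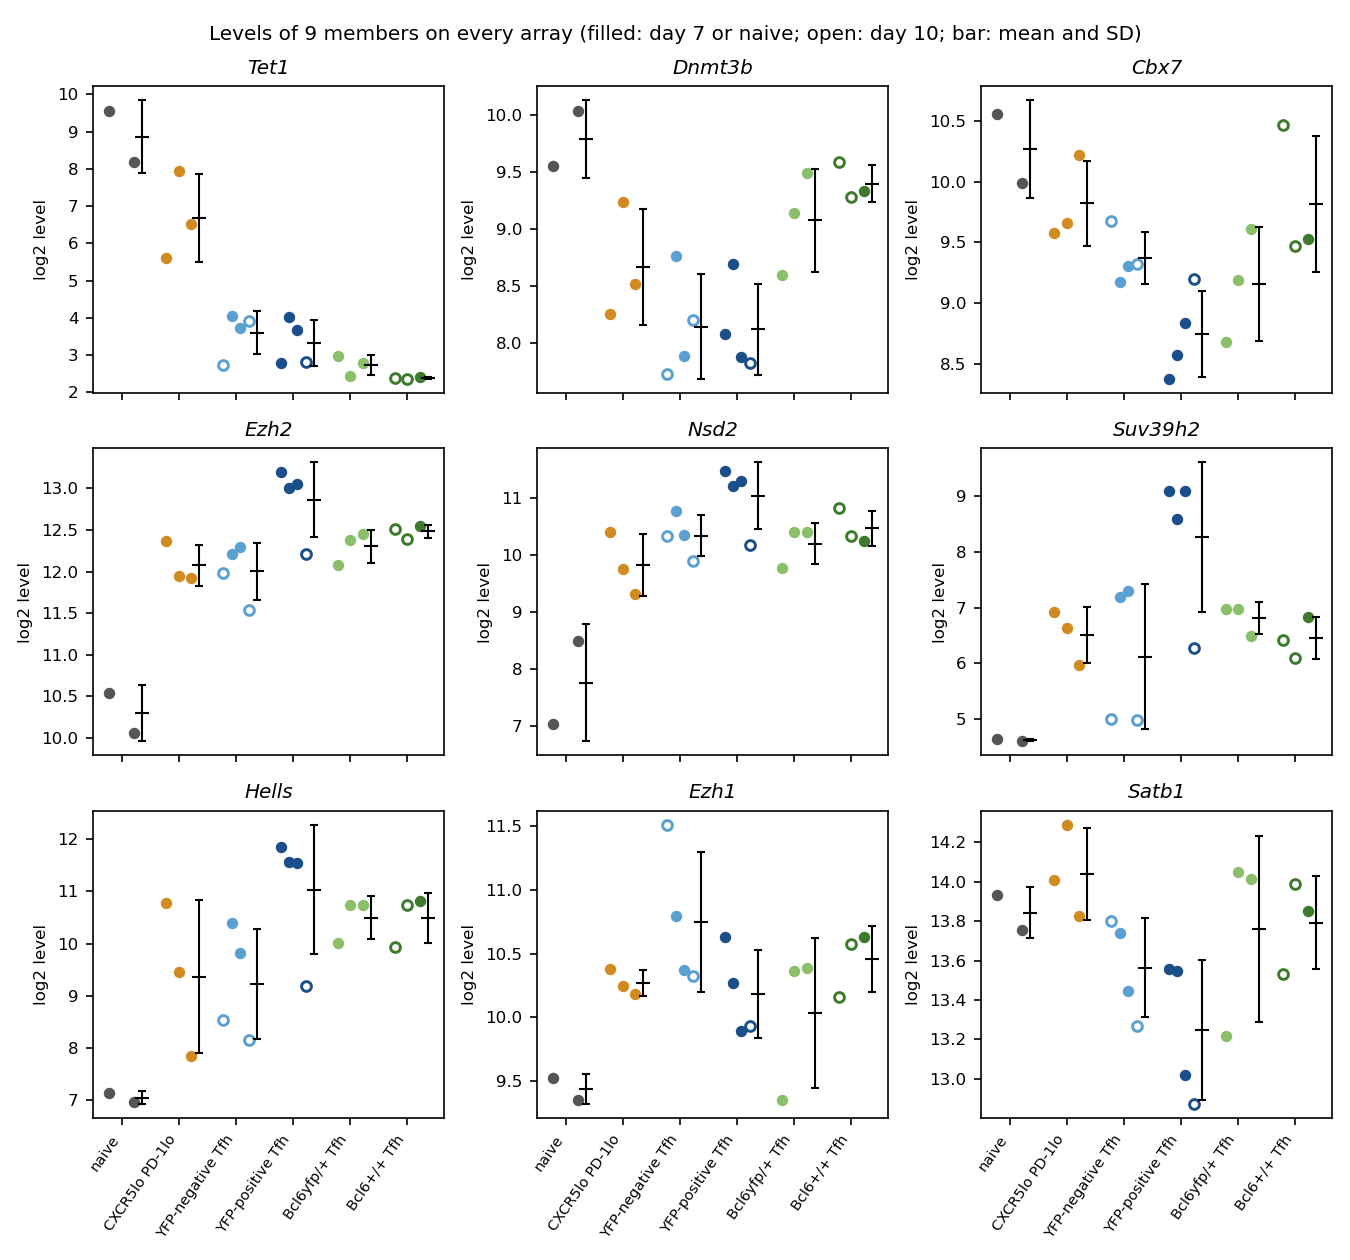
Log2 level (y axis) of 9 members on every array, by group (x axis); filled points are day 7 or naive arrays, open points day 10, and the bars give the group's mean and SD (n = 2 to 4). Tet1 steps down from naive to CXCR5lo PD-1lo to Tfh cells, whereas Suv39h2 and Hells are highest on the 3 day 7 arrays of YFP-positive cells.

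The other Tet genes had no call in the fit without a block. With the set as a block, Tet2 was called lower in both YFP groups against CXCR5lo PD-1lo and against naive cells. Tet3 was called lower in all 3 sorted groups against naive cells (-1.38 to -2.11). The Tet2 calls against naive cells rest on the naive array of set 4, where the differences were -1.37 (YFP-positive) and -0.93 (YFP-negative). Without a block they were -0.62 and -0.095. A second Tet2 probe set (mean 10.28) was higher than in naive cells, by 0.51 and 1.05. It differed from CXCR5lo PD-1lo cells by -0.97 and -0.43. The Tet2 probe set used lay between 10.64 and 12.05 in CXCR5lo PD-1lo cells and read 10.88, 11.01, 9.45 and 9.59 in YFP-positive cells. That difference of -1.22 (SE 0.54; adjusted p = 0.187) had the same sign in all 3 sets, from -1.20 to -0.65, and was called with the replicate number as a block (-1.01; adjusted p = 0.0237). Tet3 read 8.66, 8.24 and 8.83 in CXCR5lo PD-1lo cells and 8.43, 7.67, 7.42 and 6.54 in YFP-positive cells, a difference of -1.06 (SE 0.42; adjusted p = 0.13). It was 8.50, 7.85, 8.24 and 6.91 in YFP-negative, 7.38, 7.10 and 7.29 in Bcl6yfp/+ and 7.82, 7.10 and 7.12 in Bcl6+/+ cells, against 8.66 and 7.68 in naive cells. The lowest Tet3 array of each YFP group was its replicate 4, and the groups overlap.

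Dnmt3b, a de novo methyltransferase, was the other DNA methylation gene called lower than in naive cells without a block, in both YFP groups. It read 9.55 and 10.03 in naive cells, 8.08, 8.69, 7.88 and 7.82 in YFP-positive and 7.72, 8.76, 7.88 and 8.20 in YFP-negative cells. It fell by 1.67 (SE 0.36; adjusted p = 0.0021) in YFP-positive and by 1.65 (SE 0.36; adjusted p = 0.0029) in YFP-negative Tfh cells, whose arrays all lay below both naive ones. CXCR5lo PD-1lo cells read 8.25, 9.24 and 8.51 (-1.12 against naive; not called), Bcl6yfp/+ cells 8.595, 9.14 and 9.49, and Bcl6+/+ cells 9.58, 9.28 and 9.33. Bulk Tfh cells differed from naive cells by -0.55 in Dnmt3b, which was not called (adjusted p = 0.203), but were called lower with the set as a block (-1.44; adjusted p = 0.00377) and with the mean over probe sets (-0.89; adjusted p = 0.022). Within set 5 the Bcl6yfp/+ array differed from the naive one by -1.436, and the bulk value with the set as a block rests on that pair. Within set 4 the difference was -1.726 for the YFP-positive array and -1.353 for the YFP-negative array. Without naive replicate 2 the YFP-negative call was lost (-1.41; adjusted p = 0.0655).

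Dnmt3a, the other de novo enzyme, had no call by the probe set used (11.22 and 10.40 in naive cells, 11.42 to 12.22 in YFP-positive cells; 0.96, SE 0.48). Of its other 4 probe sets, fitted with all passing probe sets together, 3 were called higher in YFP-positive than in naive cells, by 1.83 (adjusted p = 0.00605), 2.34 (adjusted p = 0.0427) and 1.78 (adjusted p = 0.0484). All 5 Dnmt3a probe sets were higher in that comparison. Dnmt1, the maintenance enzyme, lay between 12.99 and 14.04 on all arrays. It was higher by 0.68 (SE 0.25; adjusted p = 0.0433) in bulk Tfh than in naive cells, which is 0.18 above the median of all genes, and this call was lost in 4 of 7 other settings and with 7 of 8 arrays left out, all but Bcl6yfp/+ replicate 1 (0.42 to 0.94). YFP-positive arrays read 13.97, 14.02, 14.04 and 13.24 and YFP-negative ones 13.47, 13.58, 13.26 and 13.11; each YFP-positive array was above its set partner, by 0.13 to 0.78, called only with the set as a block (adjusted p = 0.594 without it).

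Ezh2, the PRC2 methyltransferase of dividing cells, rose in all 4 comparisons with naive cells, as did Ehmt2, Nsd2 and Kdm2b. It read 10.54 and 10.06 in naive cells, 12.36, 11.95 and 11.92 in CXCR5lo PD-1lo cells, 11.98, 12.21, 12.29 and 11.53 in YFP-negative cells and 13.20, 13.01, 13.05 and 12.21 in YFP-positive cells. In bulk Tfh cells it read 12.07, 12.38 and 12.46 (Bcl6yfp/+) and 12.51, 12.39 and 12.55 (Bcl6+/+). Every array of immunized mice lay above both naive arrays. Ezh2 rose 3.43-fold in CXCR5lo PD-1lo (log2 1.78, SE 0.30; adjusted p = 0.00083), 5.94-fold in YFP-positive (log2 2.57, SE 0.29; adjusted p = 4.18e-06), 3.27-fold in YFP-negative and 4.28-fold in bulk Tfh cells. Those 4 calls held in all settings and with each array left out, and after subtraction of the median of all genes the rises were 1.32, 2.18, 1.33 and 1.59. YFP-positive cells were above YFP-negative cells by 0.86 (SE 0.24; adjusted p = 0.177; 0.00681 with the set as a block) and above CXCR5lo PD-1lo cells by 0.79 (SE 0.25; adjusted p = 0.0581), the same way in each set (0.67 to 0.795 in sets 2, 3 and 4 and 1.22 in set 1; 0.84 to 1.13), and the second was called with the replicate block (1.01; adjusted p = 0.0135).

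Ezh1, the PRC2 enzyme of resting cells, ran the other way within the Tfh gate. It read 11.51, 10.80, 10.37 and 10.32 in YFP-negative and 10.63, 10.27, 9.89 and 9.93 in YFP-positive cells, so that in each of the 4 sets the YFP-positive array was lower, by 0.395 to 0.53 in sets 2, 3 and 4 and by 0.88 in set 1. The difference of -0.57 in Ezh1 was called only with the set as a block. Against naive cells (9.52 and 9.35) Ezh1 rose by 1.32 (SE 0.35; adjusted p = 0.0129) in YFP-negative cells; in YFP-positive cells the difference was 0.745 (adjusted p = 0.123). That call was lost without naive replicate 1 (1.399; adjusted p = 0.058) or naive replicate 2 (1.23; adjusted p = 0.116). Suz12 and Eed, the PRC2 core subunits, had no call in the fit to all arrays without a block. Suz12 lay between 11.92 and 13.44 and Eed between 12.17 and 13.35 on all arrays. Suz12 was higher in YFP-positive than CXCR5lo PD-1lo cells by 0.34 to 0.35 in each of 3 sets, and was called so with the replicate block (0.35; adjusted p = 0.0459).

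Of the PRC1 proteins, Cbx7, a reader of the PRC2 mark, was called lower in YFP-positive Tfh cells. It read 10.55 and 9.99 in naive, 9.58, 9.66 and 10.22 in CXCR5lo PD-1lo, 9.67, 9.17, 9.31 and 9.32 in YFP-negative and 8.38, 8.57, 8.84 and 9.20 in YFP-positive cells. Bcl6yfp/+ cells read 8.68, 9.19 and 9.61 and Bcl6+/+ cells 10.46, 9.47 and 9.52. The YFP-positive arrays lay below all CXCR5lo PD-1lo and naive arrays and overlapped the YFP-negative ones. Cbx7 fell by 1.075 (SE 0.30; adjusted p = 0.029) against CXCR5lo PD-1lo and by 1.525 (SE 0.34; adjusted p = 0.00305) against naive cells. The first call was lost with 5 of 7 arrays left out, with values from -1.155 to -0.875: YFP-positive replicates 1, 2 and 3 and CXCR5lo PD-1lo replicates 2 and 3. Without naive replicate 1 the second was lost (-1.24; adjusted p = 0.0591). The 3 Cbx7 probe sets did not agree. Against naive cells the other 2 were higher in YFP-positive cells, by 0.46 and 1.38, and neither was called (adjusted p = 0.473 and 0.0691); in YFP-negative cells the second of them was called higher, by 1.86 (adjusted p = 0.0218), where the Cbx7 probe set used differed by -0.90 without a call. Against CXCR5lo PD-1lo cells all 3 were lower in YFP-positive cells, with differences of -1.075, -0.47 and -0.255.

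Bmi1, a PRC1 subunit, read 12.05 and 11.75 in naive, 11.86, 12.25 and 11.95 in CXCR5lo PD-1lo, 12.48, 12.58, 12.58 and 12.29 in YFP-positive and 12.36, 12.64, 12.56 and 12.36 in YFP-negative cells. Both YFP groups lay above all CXCR5lo PD-1lo arrays, by 0.465 each, without a call (adjusted p = 0.109 and 0.154). The calls against naive cells were small, 0.58 in each YFP group and 0.69 in bulk cells, or 0.18 to 0.20 above the median of all genes, and were lost after quantile normalization (0.13, 0.14 and 0.10). In each YFP group the Bmi1 call held without replicate 4 and was lost without any other array (0.43 to 0.73), and in bulk cells it was lost without naive replicate 2 (0.54). Phc1, a PRC1 scaffold, fell by 0.95 (SE 0.34; adjusted p = 0.0461) in YFP-positive against naive cells, from 9.40 and 9.38 to 8.16, 8.25, 8.46 and 8.89, and that call was lost with 5 of 6 arrays left out (all but YFP-positive replicate 4), with values from -0.97 to -0.86. The Phc1 call was lost as well with the set as a block (-0.71), without a filter (adjusted p = 0.0725) and with the trended prior (adjusted p = 0.062). Rnf2, the PRC1 ubiquitin ligase, lay between 11.53 and 12.69 and had no call in the fit without a block. Cbx2 varied within groups. It read 8.51, 8.12, 8.10 and 5.94 in YFP-positive, 4.99, 7.72, 6.79 and 6.20 in YFP-negative, 8.74, 7.82 and 7.40 in CXCR5lo PD-1lo, 6.92, 6.06 and 6.19 in Bcl6yfp/+, 7.87, 5.88 and 5.79 in Bcl6+/+ and 6.92 and 7.28 in naive cells. The low YFP arrays of Cbx2 were those of day 10, and no comparison called it.

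Suv39h2, which methylates histone H3 at lysine 9, was near log2 4.6 in naive cells (4.63 and 4.604). It read 9.09, 8.59, 9.10 and 6.28 in YFP-positive, 5.0, 7.19, 7.31 and 4.99 in YFP-negative and 6.93, 6.63 and 5.96 in CXCR5lo PD-1lo cells. Bulk arrays read 6.97, 6.98 and 6.49 (Bcl6yfp/+) and 6.42, 6.10 and 6.84 (Bcl6+/+). The 3 YFP-positive arrays of day 7 stood above every other array. Suv39h2 rose 12.5-fold in YFP-positive (log2 3.64, SE 0.75; adjusted p = 0.00159) and 4.04-fold in bulk Tfh cells (log2 2.02, SE 0.70; adjusted p = 0.0367) against naive cells. With the set as a block neither was called (2.07, adjusted p = 0.0934; 2.23, adjusted p = 0.176). The bulk call of Suv39h2 was also lost without either naive array, Bcl6yfp/+ replicate 2 or Bcl6+/+ replicate 3 (1.92 to 2.03). It was lost as well without a filter (adjusted p = 0.0814) and with the mean over probe sets (1.45, adjusted p = 0.0859). YFP-positive cells lay above YFP-negative cells by 2.14 (SE 0.61; adjusted p = 0.198; 0.0299 with the set as a block) in Suv39h2, by 1.29 to 1.79 in sets 2, 3 and 4 and by 4.09 in set 1, whose YFP-positive array is of day 7 and YFP-negative array of day 10, and above CXCR5lo PD-1lo cells by 1.76 (SE 0.66; adjusted p = 0.109), in each set by 1.96 to 3.13. The replicate block called the second (2.42; adjusted p = 0.0156).

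Ehmt2, another lysine 9 methyltransferase, read 10.71 and 10.36 in naive cells and 11.11 to 12.13 on all 17 arrays of immunized mice. Its rises of 0.77 to 1.08 were called in all 4 comparisons with naive cells (adjusted p from 0.00117 to 0.0181). They were 0.37 to 0.58 above the median of all genes, and none was called after quantile normalization (0.25 to 0.485; adjusted p from 0.129 to 0.457). Without naive replicate 2 the Ehmt2 calls of the 3 sorted groups were lost (0.59 to 0.81), as were that of CXCR5lo PD-1lo cells without its replicate 1 (0.93) and that of YFP-positive cells without its replicate 3 (0.67). Setdb1, between 9.24 and 10.40, and Ehmt1, between 8.49 and 10.36, had no call.

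Nsd2, which dimethylates lysine 36 of histone H3, rose in all 4 comparisons with naive cells. The probe set used read 7.03 and 8.49 in naive, 10.40, 9.74 and 9.31 in CXCR5lo PD-1lo, 10.33, 10.77, 10.34 and 9.89 in YFP-negative and 11.46, 11.20, 11.30 and 10.17 in YFP-positive cells. Bulk arrays read 9.78, 10.40 and 10.40 (Bcl6yfp/+) and 10.81, 10.33 and 10.25 (Bcl6+/+). No array of immunized mice overlapped the naive arrays. The rises were 4.16-fold in CXCR5lo PD-1lo (log2 2.06, SE 0.46; adjusted p = 0.00721), 9.67-fold in YFP-positive (log2 3.27, SE 0.43; adjusted p = 2.72e-05), 5.94-fold in YFP-negative and 5.93-fold in bulk Tfh cells. Without naive replicate 1 the CXCR5lo PD-1lo value was 1.33 (adjusted p = 0.13), and the bulk value was 1.23 in the fit that blocks on the set (adjusted p = 0.0586). The other 3 passing Nsd2 probe sets, which are dimmer, gave larger rises in YFP-positive cells, 6.20, 5.31 and 4.65 (adjusted p from 1.98e-07 to 3e-05). YFP-positive cells were above CXCR5lo PD-1lo cells by 1.22 (SE 0.38; adjusted p = 0.0529), in each set by 1.06 to 1.99, and the replicate block called this (1.503; adjusted p = 0.0208). Setd2 (10.82 to 11.42), the lysine 36 trimethylase, and Dot1l (10.39 to 12.55), the lysine 79 methylase, had no call.

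Among 6 histone demethylases, Kdm2b, which acts on lysine 36 and belongs to a variant PRC1, rose in all 4 comparisons with naive cells. It read 11.99 and 11.62 in naive, 13.24, 12.98 and 12.56 in CXCR5lo PD-1lo, 13.29, 13.21, 12.73 and 12.86 in YFP-positive and 12.96, 13.17, 12.63 and 12.71 in YFP-negative cells. Bulk arrays read 12.68, 13.53 and 13.59 (Bcl6yfp/+) and 12.98, 13.51 and 13.46 (Bcl6+/+). The rises were 1.12, 1.22, 1.06 and 1.49 (adjusted p from 0.000761 to 0.0282), or 0.66, 0.825, 0.69 and 0.98 above the median of all genes, and were called after quantile normalization (0.62, 0.78, 0.63 and 0.89). The calls of the 3 sorted groups were each lost without naive replicate 2 (0.94, 1.04 and 0.88; adjusted p from 0.0876 to 0.243). The CXCR5lo PD-1lo call was lost as well without naive replicate 1 (1.31) and without CXCR5lo PD-1lo replicate 1 (0.97) or 2 (1.10). Kdm6b, which removes the PRC2 mark, rose by 1.09 (SE 0.29, adjusted p = 0.00921) in bulk Tfh cells, from 13.47 and 13.05 to between 13.48 and 14.62. Without naive replicate 2 the value was 0.88. The call was lost with the set as a block (0.42, adjusted p = 0.129) and with the mean over probe sets (0.33, adjusted p = 0.539). It was lost as well with only the compared groups in the fit (adjusted p = 0.0741). The other passing Kdm6b probe set differed by -0.44 in that comparison. Kdm4a read 9.13 and 7.47 in naive cells, the second from set 5, whose other array, Bcl6yfp/+ replicate 1, read 7.93. It read 9.46, 9.22 and 9.16 in CXCR5lo PD-1lo, 9.33, 9.55, 9.23 and 9.56 in YFP-positive and 9.45, 9.51, 9.18 and 9.41 in YFP-negative cells. The other bulk arrays read 9.56 and 9.86 (Bcl6yfp/+) and 10.03, 9.56 and 9.6 (Bcl6+/+), and Kdm4a had no call. Kdm1a, Kdm3a and Kdm5b had none either, with Kdm3a, a lysine 9 demethylase, below its YFP-negative partner on every YFP-positive array (by 0.09 to 0.28 in sets 2, 3 and 4 and by 0.56 in set 1). It was the 1 member whose YFP-positive and YFP-negative arrays did not overlap, a separation that 2.31% of all genes showed in that direction.

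Between the sorted groups of immunized mice, the 7 that were kept (Hdac1, Hdac2, Hdac3, Hdac4, Hdac5, Hdac7 and Sirt1) had 0 calls without a block. The difference farthest from 0 in YFP-positive against CXCR5lo PD-1lo cells was that of Hdac5 (-0.71, SE 0.43), which read 8.55, 8.34 and 9.18 in CXCR5lo PD-1lo and 7.70, 7.48, 8.15 and 8.599 in YFP-positive cells. The replicate block called Hdac5 (-0.91; adjusted p = 0.0132) and Sirt1 (-0.60; adjusted p = 0.0313) lower there. Hdac3 was the 1 deacetylase called against naive cells, in bulk Tfh cells by 1.06 (SE 0.38; adjusted p = 0.0402), a call lost with 6 of 8 arrays left out (0.84 to 1.28): both naive arrays, Bcl6yfp/+ replicates 2 and 3, and Bcl6+/+ replicates 2 and 3. The Hdac3 call was lost as well with the set as a block (0.58), without a filter (adjusted p = 0.0716) and with only the compared groups in the fit (adjusted p = 0.118). Hdac2 (11.77 and 11.71 in naive cells) was 0.05 to 0.33 lower in the immunized groups, without a call. After quantile normalization Hdac2 was called lower in all 4 comparisons with naive cells, by 0.60 to 0.80 (adjusted p from 0.00251 to 0.0465). With the set as a block it was called lower by 0.678 to 0.878. The Hdac2 probe sets did not agree. As deposited, another (mean 11.19) differed from naive cells by 0.52 in CXCR5lo PD-1lo, 0.29 in YFP-positive, 0.13 in YFP-negative and -0.05 in bulk cells. The dimmest (mean 4.84) differed by 1.43, 0.12, 0.70 and -1.48 in the same order. The acetyltransferases Ep300, Crebbp and Kat2b had no call in the fit without a block and, between the sorted groups of immunized mice, differed by -0.37 to 0.04.

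Satb1, which anchors chromatin loops in T cells, shows how the choice of probe set bears on a value. The brightest of its 5 probe sets, used here by the rule, read 13.93 and 13.75 in naive, 14.01, 14.29 and 13.82 in CXCR5lo PD-1lo, 13.80, 13.74, 13.45 and 13.27 in YFP-negative and 13.56, 13.55, 13.02 and 12.87 in YFP-positive cells. All 8 arrays of the YFP groups lay below the 3 CXCR5lo PD-1lo ones. The YFP-positive difference was -0.79 (SE 0.25; adjusted p = 0.0554) and was called with the replicate block (-0.67; adjusted p = 0.0272). The other 4 probe sets had differences of -1.96, -2.09, -2.995 and -1.895, and 3 of them were called (adjusted p = 0.000815, 0.000314 and 0.0332; 0.146 for the dimmest) in a fit of all 18634 passing probe sets, of which 7.64% were called. In YFP-negative cells the same 4 had differences of -1.31, -1.51, -2.58 and -1.497, 2 of them called (adjusted p = 0.0243 and 0.00672; 4.77% called in all). This fit was added, and Satb1 singled out, after the values were seen.

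**Figure D3:**
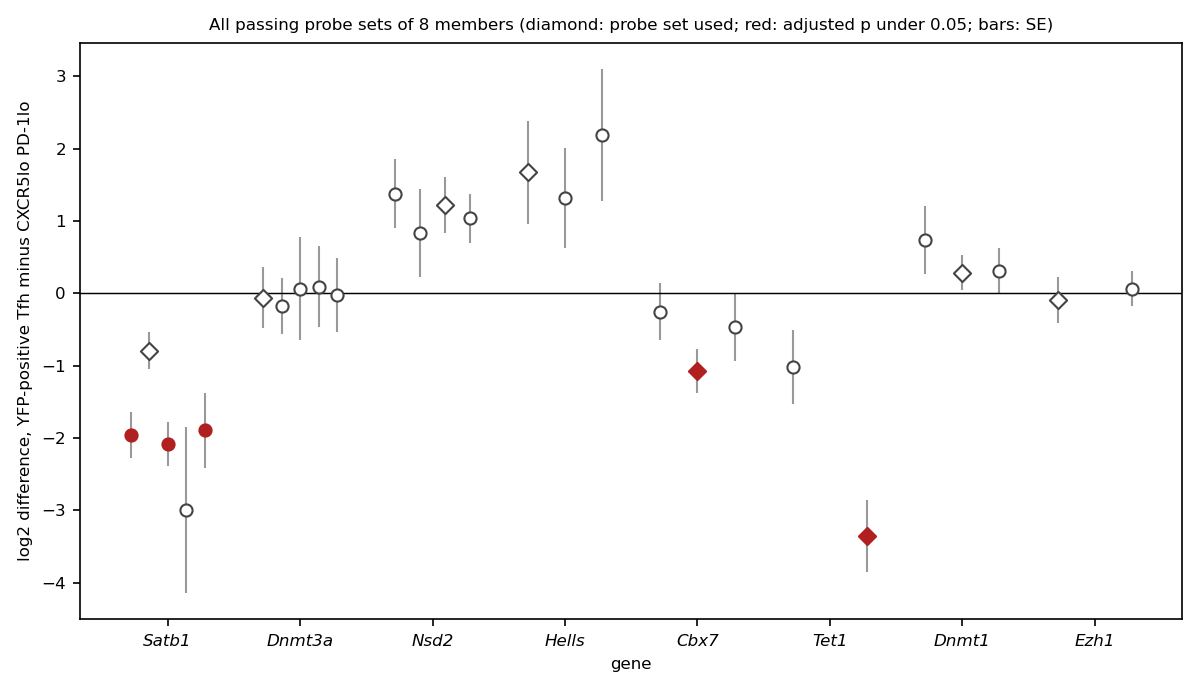
Log2 difference, YFP-positive Tfh minus CXCR5lo PD-1lo cells (y axis; bars are SE), for every passing probe set of 8 members (x axis); diamonds are the probe sets used, red marks an adjusted p under 0.05. The 5 Satb1 probe sets all lie below 0, 3 of them called but not the one used, and of the 3 Cbx7 probe sets 1 is called.

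Hells, a remodeller that DNA methylation needs, read 7.13 and 6.96 in naive, 10.78, 9.45 and 7.86 in CXCR5lo PD-1lo, 8.54, 10.40, 9.83 and 8.16 in YFP-negative and 11.85, 11.56, 11.54 and 9.19 in YFP-positive cells. Bulk arrays read 10.02, 10.73 and 10.73 (Bcl6yfp/+) and 9.94, 10.73 and 10.82 (Bcl6+/+). The spread within CXCR5lo PD-1lo and YFP-negative cells was wide, and no array of immunized mice was as low as the naive ones. Hells rose 15.8-fold in YFP-positive (log2 3.99, SE 0.80; adjusted p = 0.00129) and 10.9-fold in bulk Tfh cells (log2 3.45, SE 0.75; adjusted p = 0.00246). With the set as a block neither was called (2.44, adjusted p = 0.0792; 3.08, adjusted p = 0.0987). YFP-positive arrays lay above their YFP-negative partners by 1.03 to 1.71 in sets 2, 3 and 4 and by 3.31 in set 1 (1.80 in the fit; adjusted p = 0.317, and 0.0597 with the set as a block). Chd4, the NuRD remodeller, read 10.57 and 9.03 in naive cells and 12.95, 11.55 and 11.68, 12.99, 11.98, 11.56 and 11.14, and 13.06, 11.65, 11.88 and 11.18 in, respectively, CXCR5lo PD-1lo cells and Tfh cells with and without YFP. Its Bcl6yfp/+ arrays read 9.91, 12.77 and 12.04 and its Bcl6+/+ arrays 10.10, 12.59 and 12.13. Within each of the 3 sorted groups the Chd4 array of set 1 was highest, while the order of sets 2 and 3 differed between groups. The part of the set in these levels was not tested, and no comparison called Chd4. Smarca4, the BAF ATPase, rose by 0.805 (SE 0.27; adjusted p = 0.0289) in bulk Tfh cells, which is 0.30 above the median of all genes, and differed by -0.04 with the set as a block. Its call was lost without either naive array, Bcl6yfp/+ replicate 2 or 3, or Bcl6+/+ replicate 3 (0.70 to 0.84).

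**Figure D4:**
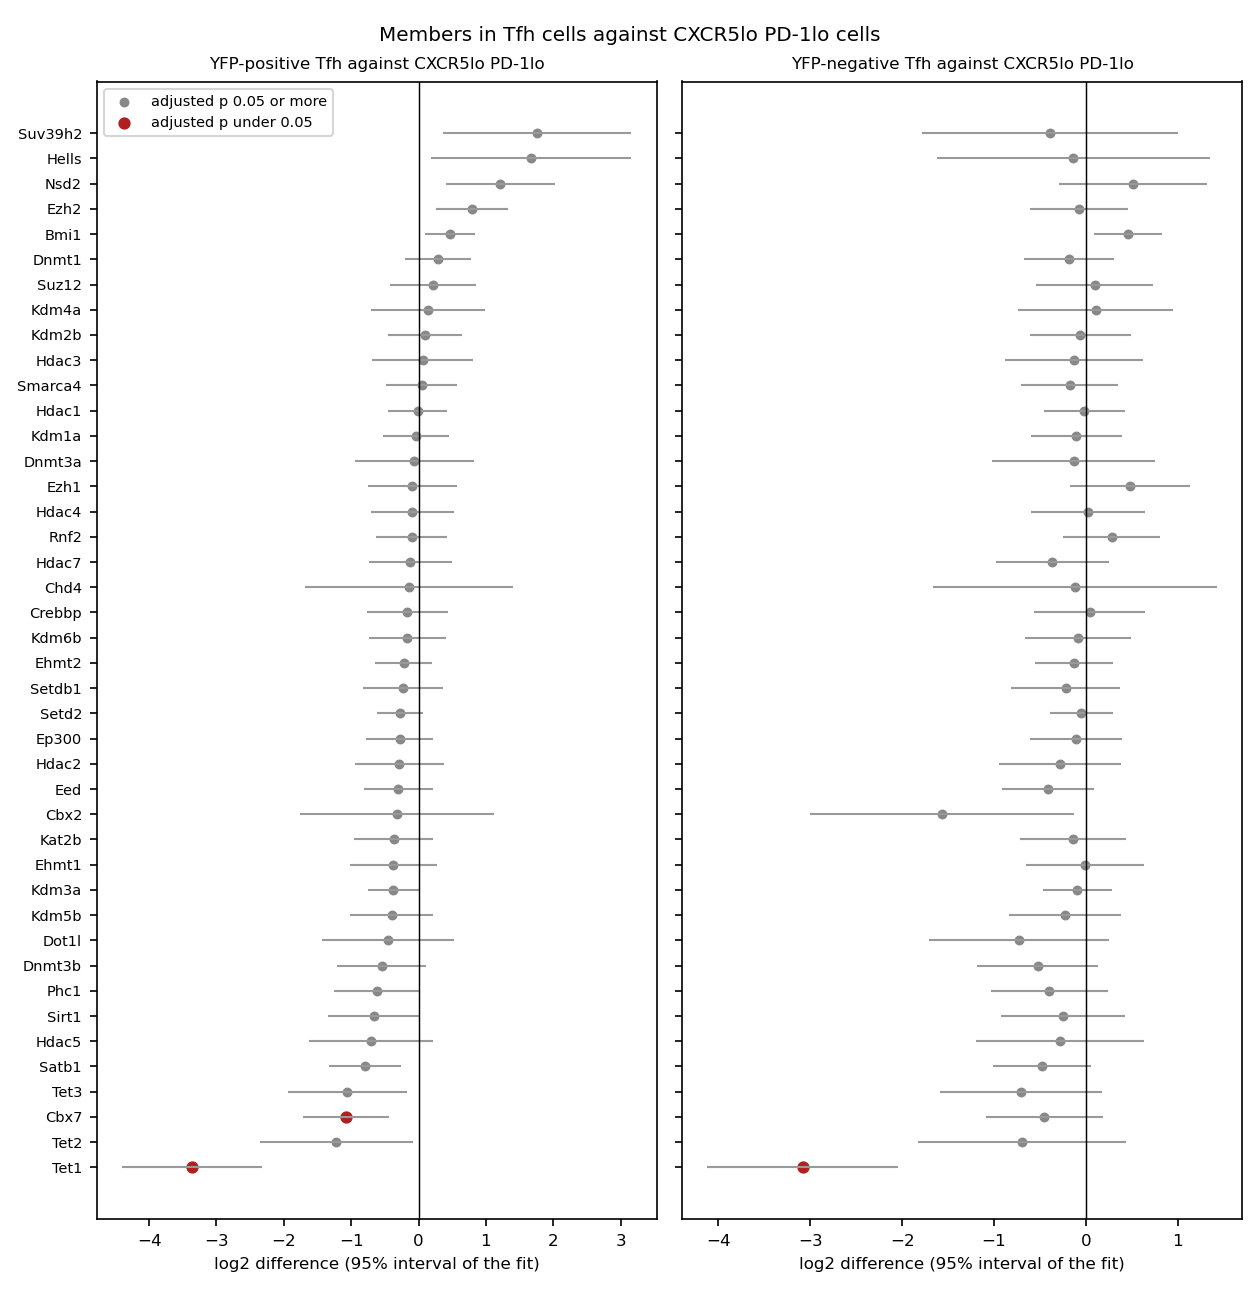
Log2 difference with the 95% interval of the fit (x axis) for the 42 members (y axis, ordered by the left panel) in YFP-positive (left) and YFP-negative Tfh (right) against the same 3 CXCR5lo PD-1lo arrays; red marks an adjusted p under 0.05. Tet1 and Cbx7 are red on the left and Tet1 alone on the right.

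A list of 39 cell cycle genes moved with several members. Its mean was 5.395 and 5.62 on the naive arrays, 10.71, 8.26 and 7.36 in CXCR5lo PD-1lo, 7.78, 9.70, 10.06 and 6.71 in YFP-negative and 12.08, 11.32, 12.11 and 9.36 in YFP-positive cells. It lay between 9.42 and 10.43 on the bulk arrays. The day 10 arrays of the YFP groups (positive replicate 4, negative replicates 1 and 4) had the lowest means there, and were also the lowest of their groups in Hells and Suv39h2. Of the 39 genes, 10 rose and 0 fell in YFP-positive against CXCR5lo PD-1lo cells and 35 rose against naive cells. In YFP-negative against CXCR5lo PD-1lo cells 0 changed. Between the YFP groups 0 were called, while all 39 were higher in YFP-positive cells, by a median of 2.90. There 36 of them had an unadjusted p under 0.05 from limma, as did 786 of all genes. The part of cell division in the levels of Hells, Suv39h2, Ezh2, Nsd2 and Dnmt1 was not tested. In sorted populations, a smaller share of cells that express a gene and less RNA in each cell cannot be told apart.

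**Figure D5:**
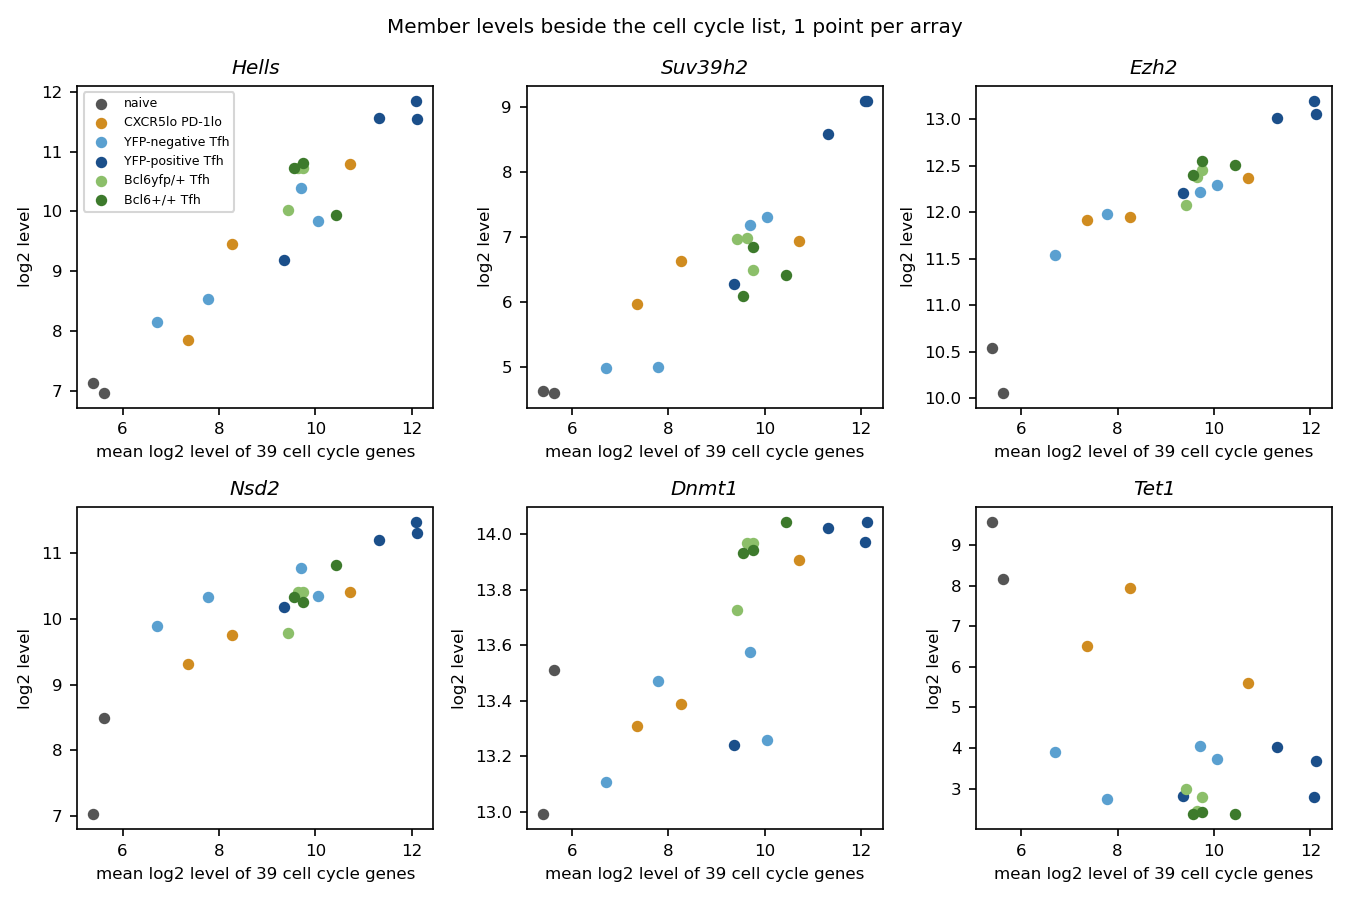
Log2 level (y axis) of 6 members against the mean log2 level of 39 cell cycle genes (x axis), 1 point for each of 19 arrays, coloured by group. Hells, Suv39h2, Ezh2 and Nsd2 run from the naive arrays at the lower left to YFP-positive replicates 1, 2 and 3 at the upper right; in Tet1 the Tfh arrays, with list means from 6.71 to 12.11, stay at 4.05 or less.

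Without YFP-positive replicate 4, the array of day 10 in that group, Ezh2, Suv39h2 and Hells were called higher in YFP-positive than in YFP-negative cells. All arrays gave 0 calls there. That fit left YFP-positive cells with day 7 arrays alone, all high in Xist, while YFP-negative cells kept arrays of both days. The calls between the YFP groups therefore carry a difference in day and sex. With day as a covariate, fitted to the arrays of immunized mice, 0 members were called between the YFP groups, as without it. The part of day and sex in the calls without YFP-positive replicate 4 was not tested. Without the same array, 6 members in place of 2 were called against CXCR5lo PD-1lo cells (Ezh2, Suv39h2, Nsd2 and Hells higher, Tet1 and Cbx7 lower). Without YFP-positive replicate 2 or 3 or CXCR5lo PD-1lo replicate 2 or 3 that count was 1, and without CXCR5lo PD-1lo replicate 1 it was 4. The shares of all genes called in these fits are not given here. Their counts are therefore not read as a trait of these members. For the 4 comparisons in which same-numbered arrays deviated together, the replicate block changed the members called in 1, YFP-positive against CXCR5lo PD-1lo cells. There 12 were called, 5 higher (Ezh2, Suz12, Bmi1, Suv39h2 and Nsd2) and 7 lower (Tet1, Tet2, Cbx7, Phc1, Hdac5, Sirt1 and Satb1). That fit called 2792 genes in all, against 1049. Between the YFP groups the block moved the count of all genes from 12 to 66 and left that of members at 0.

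Day 10 was compared with day 7 across the 3 groups that hold both days, with the group in the fit. Suv39h2 was the 1 of 42 members called, with 0.252% of all genes called and 0.0302% called lower; it fell by 1.91 (SE 0.30; adjusted p = 0.0203). Its day 10 arrays read 6.28 in YFP-positive, 5.0 and 4.99 in YFP-negative and 6.42 and 6.10 in Bcl6+/+ cells, each below every day 7 array of the same group. The gap in Bcl6+/+ cells, whose Xist level was low on all arrays, was smaller, since the day 7 array read 6.84. The call was lost without YFP-positive replicate 4 (-1.58; adjusted p = 0.413) or without YFP-negative replicate 2 (-1.88), 3 (-1.84) or 4 (-1.86). Hells (-1.63, adjusted p = 0.179) and Ezh2 (-0.50, adjusted p = 0.282) were lower at day 10 without a call. All 39 cell cycle genes were lower, by a median of 1.75, with 0 called. Of them 34 had an unadjusted p under 0.05 from limma, as did 995 of all genes.

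Bcl6yfp/+ and Bcl6+/+ Tfh cells, which differ in whether 1 Bcl6 allele carries the reporter, gave no call by limma: 0 of 42 were called, with 0% of all genes (0 genes; 287 genes and 0 members at an unadjusted p under 0.05). Member differences ran from -0.66 to 0.36, with a median of -0.13 against -0.26 for all genes. Tet1 was the 1 member whose groups did not overlap, higher in Bcl6yfp/+ by 0.36, near the floor; 0.151% of all genes were separated in that direction. The genotypes differ in day as well, and in sets 5 and 7.

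Beyond these genes, a further list of 129 kept chromatin regulators was read for context. In YFP-positive against CXCR5lo PD-1lo cells 2 rose and 5 fell, where 10.6% of all genes were called. In YFP-negative against CXCR5lo PD-1lo cells 2 rose and 0 fell, where 6.53% were called. Between the YFP groups 0 changed, where 0.121% were called. Gadd45a, linked to DNA demethylation and repair, rose by 1.80 (SE 0.39; adjusted p = 0.00571) and 1.41 (SE 0.39; adjusted p = 0.0371), and Baz1a, a subunit of the ACF remodeller, by 1.16 and 1.13. Chd7 (-1.77), Chd3 (-1.32) and Daxx (-0.89), a chaperone of histone H3.3, fell in YFP-positive cells. Against naive cells 13 to 34 of the 129 rose and 1 to 4 fell. Of all genes, 10.4% to 28.4% rose and 1.57% to 6.44% fell there, so the counts of this list are near or below those shares. Gadd45b led in all 4 comparisons, with rises from 4.99 to 5.88, followed by Uhrf1, the partner that brings Dnmt1 to replicated DNA, from 3.50 to 5.60. Setmar fell in all 4, with differences from -2.82 to -2.31.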

How the data were processed

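The deposited values are log2 expression per probe set on 19 Affymetrix arrays; the authors made them with GCRMA, per the submitters' processing notes, a method that subtracts background modelled on probe sequence. Its version is not given in the sources used for this text. RNA was amplified before labelling, per the labels' protocols. Probe sets were named through GEO's platform annotation: of 45101, 34958 had 1 symbol, 932 several and 9147 none, 64 were controls, and 34754 matched the RefSeq gene table by Entrez identifier. The rule for a gene's probe set and the filter are given above; it left 9929 of 18194 genes.

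Group means were fitted to all 19 arrays with limma 3.58.1 in R 4.3.3, with Benjamini-Hochberg adjustment over the 9929 genes. The day effect was a term added to the groups of the 17 arrays of immunized mice. The code was tested on simulated data. The 7 sets join arrays with a mean absolute difference between sorted values under 0.06 log2 (at most 0.0482 within a set, at least 0.0666 between sets). Same-numbered arrays deviated together over genes in YFP-positive and YFP-negative (r from 0.45 to 0.868), YFP-positive and CXCR5lo PD-1lo (0.391 to 0.684), YFP-negative and CXCR5lo PD-1lo (0.267 to 0.387) and the 2 genotypes (0.572 to 0.64). In the sorted groups such arrays also share a set, so pairing and set cannot be told apart. Unlike-numbered genotype arrays of set 6 gave 0.555 and 0.427. The number was used as a block without being shown to mark a pair. The YFP arrays of replicate 1 differ in day and in Xist (13.77 and 1.97), and genotype replicates 1 and 2 differ in day. Alternatives are given in the closing section. The fit of all passing probe sets was chosen after seeing the data.

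Every member called between groups of immunized mice and the 12 members with the widest span of group means were to be given on every array; of other chromatin regulators, at most 3 highest and 3 lowest called per comparison. The members and lists were chosen with earlier results of these data known. Nothing in the labels states that replicates were separate animals. The p-values therefore reflect the spread among the arrays at hand, which may be technical, and the number of arrays limits the precision.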

Additional observations from a re-analysis of the deposited data

Results flagged for a closer look

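In the groups of 4, the lowest or highest array stood far from the other 3 in 4 of 84 tests, and chance alone gives about 1 in 20. YFP-positive replicate 4, of day 10, was the low array in 3 of them: Dnmt1 at 13.24 (the others 13.97 to 14.04), Cbx2 at 5.94 (8.10 to 8.51) and Hells at 9.185 (11.54 to 11.85). On this array the mean of the cell cycle list was 9.36, against 11.32 or more on the other 3. Ehmt2 was low on YFP-negative replicate 4, also of day 10, at 11.17 (11.45 to 11.48).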

How the results depend on the processing

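Of 40 member calls, over 16 members, 17 held in all settings other than leaving out an array, and 13 of these also with each array left out. They include every Ezh2 call and the Tet1 calls in Tfh cells. With the set as a block 10 members were called between the YFP groups, 20 and 11 in YFP-positive and YFP-negative against CXCR5lo PD-1lo cells, 8 in CXCR5lo PD-1lo and 16 in YFP-negative against naive cells, and 0 by day. Quantile normalization gave 1, 7 and 3 in the first 3, and 17 in YFP-positive against naive cells. In YFP-positive against CXCR5lo PD-1lo cells the replicate block gave 12, day as a covariate 6 and the trended prior 5. The mean over probe sets gave 2 in YFP-negative against CXCR5lo PD-1lo cells and 0 by day, and no filter 0 by day. Fitting the compared groups alone gave 2 in CXCR5lo PD-1lo and 7 in bulk Tfh against naive cells. The cause of these moves was not tested. Where no count of all genes is given above for a setting, its member count is not set against a share of all genes. Such counts are not read as a trait of these members. Of single members, Cbx7 in YFP-positive against naive cells turned to 0.10 with the mean over probe sets, as its other probe sets are higher, and Smarca4 in bulk cells to -0.044 with the set as a block.

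With 1 array left out the counts ran from 0 to 3 between the YFP groups, 1 to 6 in YFP-positive and 1 to 1 in YFP-negative against CXCR5lo PD-1lo cells, 2 to 5 in CXCR5lo PD-1lo, 7 to 15 in YFP-positive, 3 to 9 in YFP-negative and 6 to 23 in bulk Tfh against naive cells, 0 to 0 between genotypes and 0 to 3 by day. The bulk count was 23 without Bcl6yfp/+ replicate 1 and 6 without naive replicate 2; the latter array also gave the 7 and the 3, and without either naive array the CXCR5lo PD-1lo count was 3. Without CXCR5lo PD-1lo replicate 1 the counts were 4 in YFP-positive against CXCR5lo PD-1lo cells and 2 in CXCR5lo PD-1lo against naive cells. The count was 3 by day without Bcl6+/+ replicate 3. Shares of all genes are not given for these fits. A lone naive array is assumed to vary like the other groups. The replicate block changed no other call of a member. No paired analysis was possible because of too few shared numbers in comparisons with naive cells. Signal near the floor limits what can be said of Tet1 in Tfh cells.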
